A study of Arabidopsis thaliana with 4 samples.

Results

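Genes of vesicle traffic were read from Arabidopsis thaliana arrays of a study that targeted myosin XI-K, an actin-based motor that moves membrane vesicles and organelles. The members were the probe sets listed to 1 gene whose symbol begins with one of 15 stems of Rab, SNARE, exocyst, SEC and VPS gene names. The rule found 21 members among the 13513 probe sets listed to 1 gene, each for a different gene. All 21 came from 2 stems, SEC with 11 genes and VPS with 10, and the 13 stems for RABA to RABH, SYP, VAMP, VTI, SNAP and EXO70 had none, so those genes are not analysed here under these names. The set is therefore called the SEC and VPS genes. A set named for Rab GTPases, SNAREs and the exocyst would describe it poorly, since it holds no Rab GTPase and 1 SNARE. It holds 6 genes of exocyst subunits, 9 genes of the ESCRT machinery, 1 SNARE (SEC22), 1 SNARE-binding protein (SEC1B) and 1 Rab exchange factor (VPS9B). The last 3, SECA2, SECE1 and SEC, fit by the letters of their symbols and are not vesicle traffic genes.

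Secretory vesicles that reach the plasma membrane are first held there by a tether, the exocyst, and then fused by SNARE proteins, which Sec1/Munc18 (SM) proteins bind and help to assemble. Rab GTPases mark each membrane and recruit tethers, and exchange factors switch them on. ESCRT complexes act later, at the endosome, where they sort ubiquitinated membrane proteins into internal vesicles that are degraded in the vacuole. In plant cells class XI myosins carry vesicles and organelles along actin filaments, which makes these genes neighbours of myosin XI-K in cell function.

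The study used plants carrying an inverted repeat from the myosin XI-K coding region, which triggers RNA interference (RNAi), in 3 independent plant groups, and a control group that constitutively expresses the bacterial reporter GUS, so every group carries a transgene. RNA came from a mix in equal parts of rosette leaves, cauline leaves and flowers, with 1 array for each plant group. The labels name no promoter of the repeat, no ecotype and no plant age, and do not say how many plants made up a group. The columns deposited for the GUS control and for RNAi group 1 were the same in each of the 22810 rows, so they were counted as 1 sample, called the shared array, and which plant group it measured cannot be told apart. The 3 distinct arrays are the shared array, RNAi group 2 and RNAi group 3. A difference from the shared array can therefore not be read as one between silenced and control plants. The silenced gene itself was not checked, as it has no named probe set in the annotation used.

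Values are probe set signals in linear units as deposited, already brought to 1 trimmed mean (500.05 or 500.06) on every array. Signals under 32, where folds are least reliable, made up 25% to 27.7% of each array. Of the 21 members, 20 passed the filter on dim probe sets, a mean log2 signal above 5.307. VPS24.2, an ESCRT gene, did not pass, with signals of 3.7, 2.9 and 3.1 on the shared array and RNAi groups 2 and 3. RNAi groups 2 and 3 (n = 2) were compared with the shared array (n = 1) by limma over all 15922 kept probe sets. The spread between the 2 RNAi arrays gives 1 residual degree of freedom for each gene. Limma adds 7.45 prior degrees of freedom from kept probe sets of like signal. Each p thus rests mostly on that common spread and little on the gene's own 2 arrays. Of 8 leaf markers 2 have a named probe set, RCA and LHCB4.1, and both were bright on every array, with LHCB4.1, a light-harvesting protein gene, at 20086.6, 14452.3 and 20157.2. No marker fixed for flower organs has a probe set named here, and the 3 named root markers, of a tissue outside the mix, were all under the filter.

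**Figure D1:**
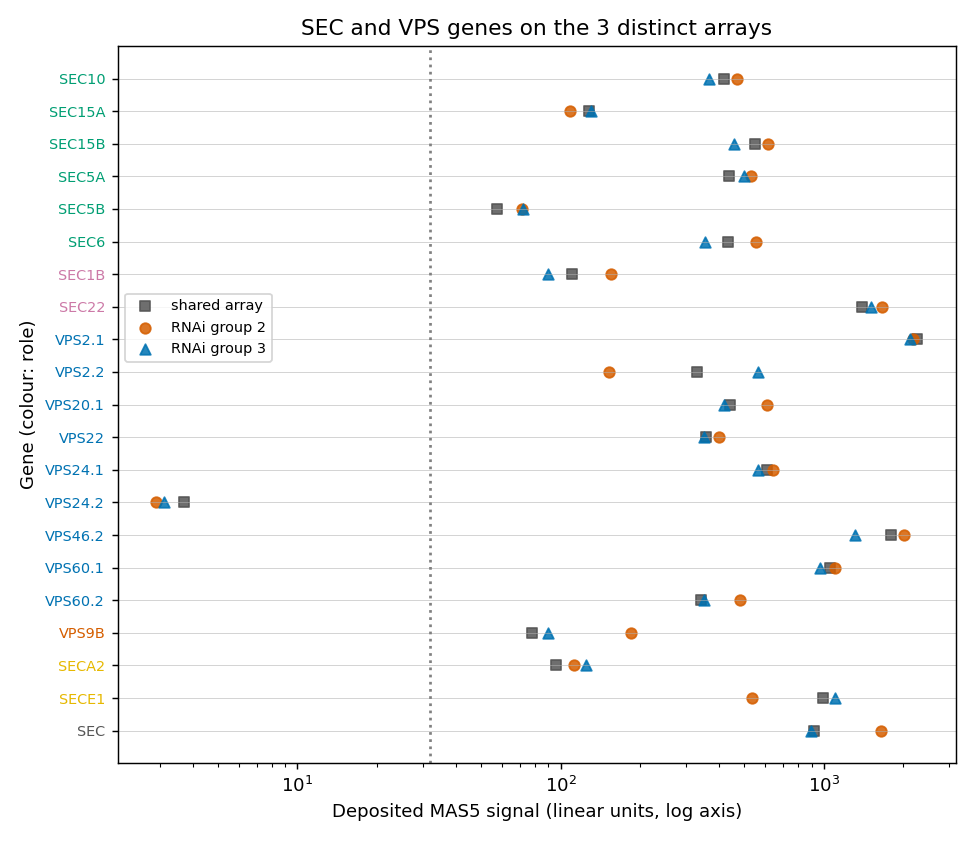
Deposited MAS5 signal (linear units on a log axis) of each SEC and VPS gene on the shared array (squares), RNAi group 2 (circles) and RNAi group 3 (triangles), with gene names coloured by role and a dotted line at a signal of 32. Most genes keep their 3 arrays close together; VPS2.2, VPS9B, SECE1 and SEC are spread widest, and VPS24.2 lies under 32 on all 3.

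No difference of a SEC or VPS gene from the shared array passed the test. By limma 0 of the 20 kept members were called higher and 0 called lower, against 0.0314% and 0% of all kept probe sets. At an unadjusted p under 0.05, 0 members were higher and 0 lower, while 0.923% and 0.301% of all kept probe sets were. The limma adjusted p was 0.9999 for all 20, and VPS9B had the smallest unadjusted p, 0.292. The median log2 difference of the 20 members was 0.05, beside 0.04 for all kept probe sets. Standard errors ran from 0.50 to 0.75, the 95% interval of each of the 20 held 0, and its median half-width was 1.21 on the log2 scale. A change of about 2-fold in a single gene was thus not detectable here, and the missing calls do not show that levels were equal. These intervals are not adjusted for the number of probe sets, so the limit for a call was higher still. The pollen gene AT1G29140 was not called at a log2 difference of 5.36 (limma adjusted p = 0.08336). With signals under 32 set to 32 that difference was 2.56. The gene was listed because earlier results of these data showed a large difference, and it passed the filter through the RNAi groups alone. Its signal on the shared array was 4.6, so it does not set the limit for the kept members, whose lowest signal was 57.5. A difference of 2-fold or more that ran the same way in RNAi groups 2 and 3 was found for 0 of the 20, with 1.27% of the background higher and 0.364% lower by that measure.

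**Figure D2:**
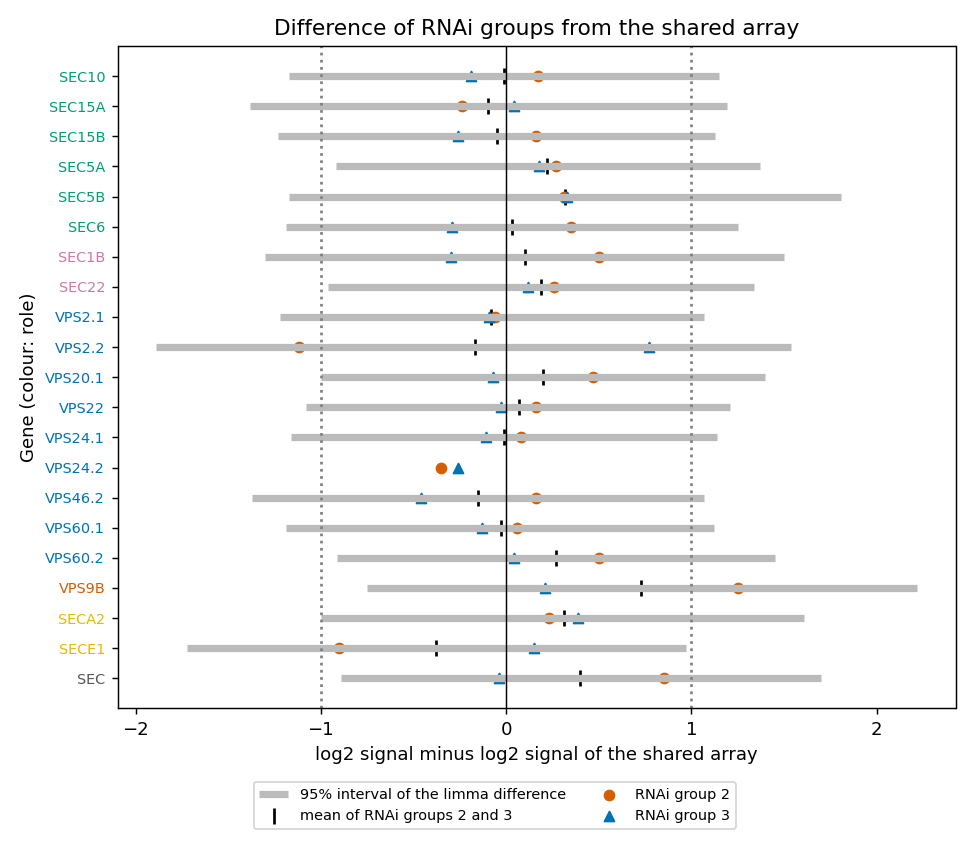
Log2 difference from the shared array of RNAi group 2 (circles) and RNAi group 3 (triangles) for each SEC and VPS gene, with their mean (bar) and the 95% interval of the limma difference (grey) for the 20 kept genes; dotted lines mark 2-fold. Every interval holds 0, and VPS2.2 and VPS9B in RNAi group 2 are the points past 2-fold.

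Of the 6 exocyst genes, all except SEC6 kept their 3 arrays within 1.5-fold of each other. SEC6, a core subunit, had signals of 432.9 on the shared array against 552.8 in RNAi group 2 and 353.4 in group 3, the widest spread of the 6. It lay above the shared array in RNAi group 2 and under it in group 3, with a log2 difference of 0.03 (SE 0.53) for both together, which turned to -0.03 with quantile normalisation and -0.05 with median centring. SEC10, another core subunit, had 417.1, 468.6 and 366.2, in the same order of arrays. SEC15B, one of a pair of genes for the subunit that in yeast and animals binds a Rab GTPase on the vesicle, followed that order too, at 546.9, 613.0 and 455.5. Its relative SEC15A ran the other way, with 127.8, 108.5 and 131.1. The log2 value of RNAi group 2 minus RNAi group 3 was 0.43 for SEC15B and -0.27 for SEC15A.

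SEC5A and SEC5B, the genes of a further subunit, were the exocyst members higher in both RNAi groups. SEC5A had 437.8 on the shared array against 527.7 in RNAi group 2 and 495.8 in group 3, with a log2 difference of 0.22 (SE 0.50). SEC5B had 57.5, 71.2 and 72.1, a log2 difference of 0.32 (SE 0.65). Both differences were smaller than their standard errors. The other 4 exocyst genes lay on opposite sides of the shared array in the RNAi groups, which 46.5% of all kept probe sets did. EXO84B, an exocyst subunit outside the rule, had 514.0, 553.5 and 535.6. Over the 6 members, the median log2 difference from the shared array was 0.22 in RNAi group 2 and -0.08 in RNAi group 3, beside 0.04 in each for all kept probe sets.

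Both members of membrane fusion, SEC22 and SEC1B, had their highest signal in RNAi group 2, as did 39.5% of all kept probe sets. SEC22, a SNARE of transport between the endoplasmic reticulum and the Golgi, had 1393.1 on the shared array against 1664.6 in RNAi group 2 and 1510.7 in group 3, with a log2 difference of 0.19 (SE 0.50). SEC1B, an SM protein that by its family binds syntaxins, had 110.2, 155.6 and 89.6. It was 1.41-fold higher than the shared array in RNAi group 2 and lower in RNAi group 3, with a log2 difference of 0.10 (SE 0.61). KEU (KEULE), the SM protein known for fusing vesicles at the cell plate in dividing cells, lies outside the rule and had 778.5, 921.6 and 724.1, in the same order as SEC1B. YKT61, another SNARE outside the rule, had 1884.8, 2533.7 and 2067.3.

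Among the ESCRT genes VPS2.2 and VPS46.2 were the kept members whose 3 arrays spread over more than 1.5-fold. VPS22, of the ESCRT-II complex, had signals of 358.5 on the shared array against 401.1 in RNAi group 2 and 352.0 in group 3, with a log2 difference of 0.07 (SE 0.50) that turned to -0.01 with median centring. The remaining members belong to ESCRT-III, the filament that cuts the internal vesicles from the endosomal membrane, or are related to it. VPS20.1, which starts the filament, had 440.5, 611.5 and 419.3, and lay 1.39-fold above the shared array in RNAi group 2 alone. VPS24.1, a later subunit, had 606.4, 643.1 and 563.1.

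VPS2.2 had the widest spread of all 20 kept members. VPS2 proteins join the filament late and help to recruit the ATPase that takes it apart. VPS2.2 had 331.3 on the shared array against 152.9 in RNAi group 2 and 563.7 in group 3. RNAi group 3 was thus 3.69-fold above RNAi group 2, with the shared array between them. The log2 value of RNAi group 2 minus RNAi group 3 was -1.88, a size larger than that of 96.9% of all kept probe sets, and there is no replicate of either array to test it. Against the shared array both RNAi groups cancelled, at -1.12 and 0.77, and the log2 difference was -0.17 (SE 0.75, 95% interval -1.89 to 1.54). Its relative VPS2.1 had 2271.2, 2177.7 and 2126.5, the narrowest spread of the ESCRT genes that passed the filter and the single kept member lower in both RNAi groups. Markers of the tapetum, the anther layer that feeds pollen, were read on the same arrays, and 2 of the 6 on that list are named. The tapetum gene AT5G07230 had 974.3, 616.3 and 1064.7, and AMS, a tapetum regulator, 199.1, 150.5 and 188.7. Both were lowest in RNAi group 2, as 35.4% of all kept probe sets were. Between RNAi groups 2 and 3 the log2 value was -0.79 for AT5G07230, larger in size than 73.9% of all kept probe sets. For AMS it was -0.33, larger in size than 37.3% of them. The share of tapetum in these arrays is thus not settled by the 2 markers. The part of tapetum in the VPS2.2 values was not tested, and in mixed tissue fewer cells of a type and less RNA per cell cannot be told apart.

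VPS46.2, an ESCRT-III relative also called CHMP1A, had 1808.6 on the shared array against 2024.2 in RNAi group 2 and 1310.3 in group 3. CHMP1 proteins are needed in Arabidopsis to sort auxin carriers into internal vesicles. Its signal in RNAi group 3 was 0.724 of that on the shared array, and the log2 difference was -0.15 (SE 0.54). VPS60.1 had 1059.0, 1103.3 and 968.8, and VPS60.2 had 340.8, 480.7 and 349.6, 1.41-fold above the shared array in RNAi group 2. Both VPS60 genes were highest in RNAi group 2, as were 6 of the 8 kept ESCRT members, against 39.5% of all kept probe sets. With median centring, which takes away VPS24.1 and VPS60.1, it was 4 of the 8, against 32.1% of all. Over those 8 members the median log2 difference from the shared array was 0.12 in RNAi group 2 and -0.08 in RNAi group 3. For all kept probe sets it was 0.04 in each.

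VPS9B had the largest difference from the shared array of the 20 kept members. VPS9 proteins are exchange factors that switch on the Rab GTPases of the RAB5 type on endosomes. VPS9B had 77.6 on the shared array against 184.7 in RNAi group 2 and 89.8 in group 3. RNAi group 2 stood 2.38-fold above the shared array and 2.06-fold above RNAi group 3, while those 2 arrays lay close together. The log2 difference was 0.73 (SE 0.65, 95% interval -0.75 to 2.22; limma adjusted p = 0.9999), and it was 1.25 in RNAi group 2 and 0.21 in RNAi group 3, so RNAi group 2 carries most of it. Pollen markers were also brightest in RNAi group 2. Of the 20 genes on that list 8 have a named probe set, and all 8 were highest in RNAi group 2, as 39.5% of all kept probe sets were. The 4 kept ones, AT3G07820, AT5G07430, AT5G45880 and AT1G29140, were listed because earlier results of these data showed large differences. They are thus no independent measure of pollen. The others were under the filter. Among these ACT12 had 31.0 on the shared array against 46.3 in RNAi group 2 and 11.8 in group 3, and MGH3 had 5.0, 53.2 and 13.6. The pollen receptor genes ANX1 and ANX2 had signals from 1.5 to 23.3, under the filter. The part of pollen content in the VPS9B values was not tested.

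The 3 members outside vesicle traffic included some of the wider spreads. SECE1, a membrane subunit of the plastid Sec translocase that inserts proteins into thylakoids, had 995.1 on the shared array against 534.3 in RNAi group 2 and 1101.3 in group 3. RNAi group 2 was low and the other 2 arrays lay together, with a log2 difference of -0.38 (SE 0.59) from the shared array and -1.04 between RNAi groups 2 and 3. SECA2, the motor ATPase of a second plastid Sec system in the envelope, had 96.1, 112.7 and 125.5. The photosynthesis gene LHCB4.1 was likewise lowest in RNAi group 2, as 35.4% of all kept probe sets were. Its log2 value between RNAi groups 2 and 3 was -0.48, larger in size than 52.0% of them. RCA, the other named leaf marker, was nearly level at 21684.4, 20964.3 and 22392.2, with -0.10 between RNAi groups 2 and 3. The relation of these markers to SECE1 was not tested. SEC (SECRET AGENT), an enzyme that adds N-acetylglucosamine to proteins, had 915.5, 1645.2 and 893.0, a log2 difference of 0.40 (SE 0.57). RNAi group 2 was 1.80-fold above the shared array for SEC, and RNAi group 3 was level with it.

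RNAi groups 2 and 3 differed from each other by at least 2-fold for 3 of the 20 kept members, or 15%, against 16.9% of all kept probe sets. VPS9B was higher in RNAi group 2, as 9.54% of all were, and VPS2.2 and SECE1 were lower in it, as 7.31% were. The members' share is near the background. Against the shared array VPS9B was 2-fold higher and VPS2.2 2-fold lower in RNAi group 2; the background shares there were 6.29% for higher and 3.76% for lower. In RNAi group 3 0 members were 2-fold higher and 0 lower, where 3.81% and 3.95% of all were. After VPS2.2, SECE1 and VPS9B, the widest spreads between RNAi groups 2 and 3 on the log2 scale were 0.88 for SEC, 0.80 for SEC1B, 0.65 for SEC6, 0.63 for VPS46.2 and 0.54 for VPS20.1, all higher in RNAi group 2. The median absolute difference over the 20 members was 0.39, beside 0.46 for all kept probe sets. The 3 arrays lay within 1.5-fold of each other for 13 of the 20 members, or 65%, and for 47.6% of all kept probe sets. Of all kept probe sets 9.1% had a mean signal below that of SEC5B, the dimmest kept member. The part of signal level in these shares was not tested.

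**Figure D3:**
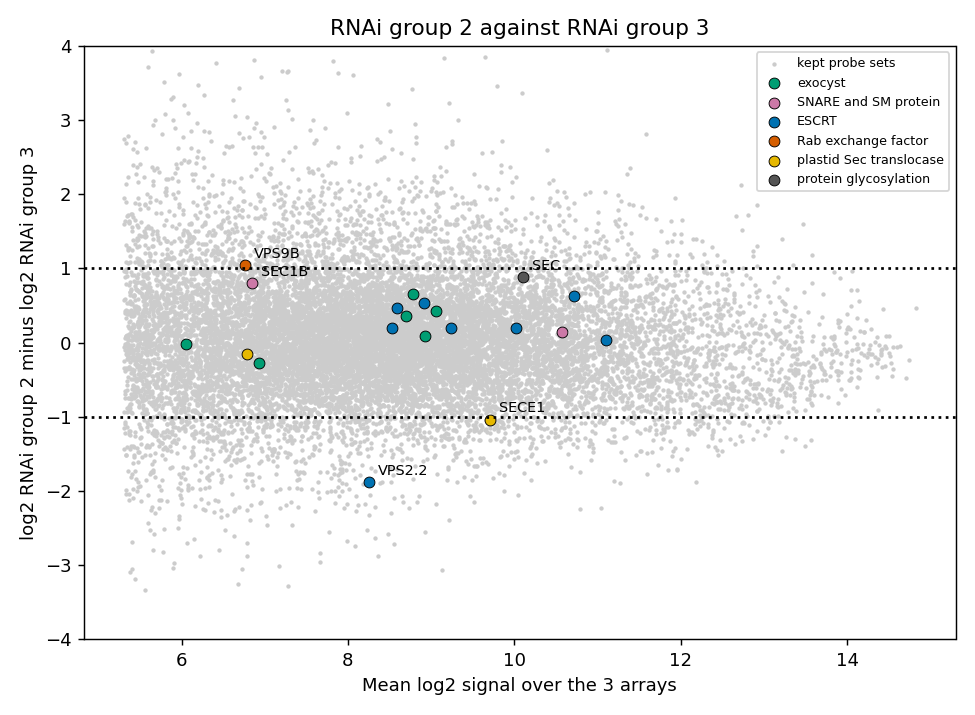
Log2 signal of RNAi group 2 minus RNAi group 3 against the mean log2 signal over the 3 arrays, for all 15922 kept probe sets (grey; 26 lie outside the plotted range) and the 20 kept SEC and VPS genes (coloured by role), with dotted lines at 2-fold. VPS2.2 and SECE1 lie below the lower line and VPS9B above the upper one, while the exocyst genes lie between -0.27 and 0.65.

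RNAi group 2 had the highest of the 3 signals for 14 of the 20 kept members, against 39.5% of all kept probe sets, and the lowest for 3, SEC15A, SECE1 and VPS2.2, against 35.4%. RNAi group 3 was the lowest for 11 of the 20, where 34.4% of all were, and the highest for 5, where 37.1% were. The margins were small, as the 20 members had a median log2 difference of 0.20 between RNAi group 2 and the shared array and of -0.03 for RNAi group 3. The median over all probe sets of RNAi group 2 itself lay 0.13 above the shared array on the log2 scale, so the scaling touches this count. With median centring RNAi group 2 was the highest for 11 members, where 32.1% of all were, and with quantile normalisation for 14, where 35% were. The probe sets are not independent of each other, and no test was made. In both RNAi groups 6 of the 20 members lay above the shared array by any amount and 1 below it, against 30.2% and 23.3% of all kept probe sets.

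Gene synonyms in the reference table fit the stems for 11 further genes, a group put together after the values were seen and given without a test. ARA6 (RABF1), a plant-specific GTPase of the RAB5 type on endosomes, had 1478.1 on the shared array against 1535.3 in RNAi group 2 and 1599.5 in group 3. RAB6A (RABH1B), a Golgi Rab GTPase, had 1281.9, 1487.1 and 1471.6. AtSec20, a SNARE of return traffic to the endoplasmic reticulum, had 450.3, 433.2 and 572.3, lowest in RNAi group 2, unlike SEC22. AT3G63460, with the synonym SEC31B, encodes an outer coat protein of vesicles that leave the endoplasmic reticulum, and had 330.1, 486.0 and 514.7. It was the kept gene of the 11 with the largest log2 difference, 0.60 (SE 0.50), above the shared array in both RNAi groups. Its relative AT1G18830 (SEC31A) was dim, at 25.2, 30.2 and 32.2.

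The ESCRT-III core genes SNF7.1 and SNF7.2, which form the bulk of the filament, had 800.7, 946.3 and 725.6, and 860.8, 1013.0 and 709.1, highest in RNAi group 2 and lowest in RNAi group 3. AT5G04920 (VPS36, of ESCRT-II) had 515.5, 450.6 and 421.5, below the shared array in both RNAi groups. AT2G36680 (VPS37-2), of ESCRT-I, had 332.5, 282.4 and 273.6, in that order too. ELC, also of ESCRT-I, was taken from the other traffic lists and not by synonym. It had 759.8, 728.1 and 609.8. The log2 differences of AT5G04920, AT2G36680 and ELC were -0.24, -0.26 and -0.19, each under its standard error of about 0.5. The syntaxin gene ATSYP24 read 34.3 on the shared array, against 2.8 and 2.6 in RNAi groups 2 and 3. All 3 signals lie near or under 32, and with signals under 32 set to 32 its log2 difference of -3.67 became -0.10.

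The other traffic lists hold 28 named genes, among them ARA6, KEU, SNF7.1 and SNF7.2, which also fit by synonym. Of the 28 genes 23 passed the filter, and limma called 0 of these higher and 0 lower. Their median log2 difference was 0.05, beside 0.04 for all kept probe sets. Among the PRA1 genes, whose products bind prenylated Rab GTPases on Golgi and other membranes, PRA1.B1 had 566.8 on the shared array against 833.0 in RNAi group 2 and 645.2 in group 3, the largest positive log2 difference, 0.37 (SE 0.51). PRA1.G2 had the largest negative one, -0.51 (SE 0.69), at 71.7, 57.8 and 43.9. Among the ARF-like GTPases, ARLA1C had 682.7, 357.0 and 431.0, lower in both RNAi groups with a log2 difference of -0.80 (SE 0.51), the lowest of the 23. Its relative ARLA1D had 973.0, 1443.9 and 932.5, a log2 difference of 0.25 (SE 0.54). The dynamin-like gene DL1B had a log2 difference of 0.79 (SE 0.72), from a signal of 35.2 on the shared array, near the dim end. Of the 6 named myosins, the 4 kept ones had a median log2 difference of 0.19, and XIC, known from pollen tubes, had the largest of them, 1.85 (SE 0.75). Its signal on the shared array was 18.6, it passed the filter through the RNAi groups alone, and with signals under 32 set to 32 the difference was 1.07. No gene of the list of pollen-specific traffic genes, such as SYP124 or RABA4D, has a probe set named here.

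**Figure D4:**
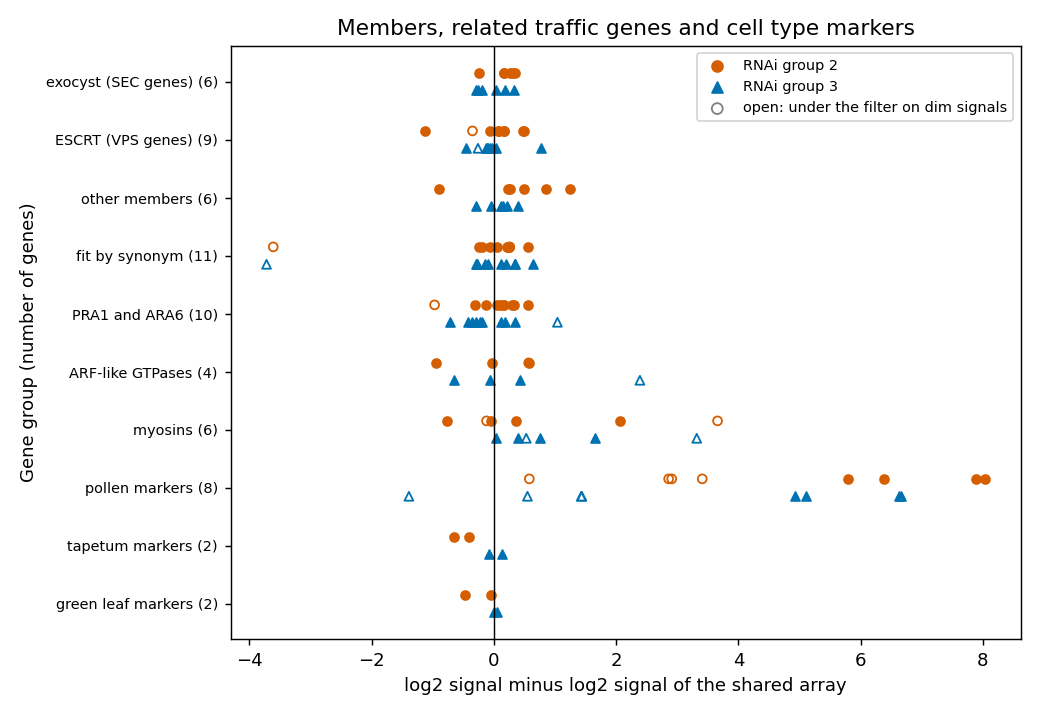
Log2 difference from the shared array of each gene in RNAi group 2 (circles) and RNAi group 3 (triangles), by gene group with its number of genes; open symbols are under the filter on dim signals. Exocyst and ESCRT genes lie between -1.12 and 0.77, while the 4 kept pollen markers lie far to the right. These 4 were listed because earlier results of these data showed large differences. Their signals on the shared array were 1.9 to 11.3, and they passed the filter through the RNAi groups alone. Their log2 differences of both RNAi groups together, 5.36 to 7.35, were 2.56 to 4.25 with signals under 32 set to 32.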

How the data were processed

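Biotin-labelled cRNA was hybridised to 1-colour Affymetrix arrays, per the labels' protocols. The submitters' processing notes name GCOS and MAS5 without versions, and the table the authors deposited gives each probe set's intensity in linear units. Genes were named through the platform annotation, updated by gene identifier to TAIR10.1 (13436 of 13513 matched; 503 probe sets listed to several genes were left out). The members and gene lists were chosen with earlier results of these data known. ARL and CHC1 fitted a list by their letters but are other genes, and were removed. All members are named; from other lists, the rule names the largest positive and negative difference, and further genes were chosen after their values were seen.

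The 64 control probe sets were removed, signals put on the log2 scale, and probe sets above the 30th percentile of mean log2 signal kept. limma 3.58.1 in R 4.3.3 (lmFit, eBayes with an intensity trend, 2-sided, Benjamini-Hochberg, threshold 0.05) compared RNAi groups 2 and 3 with the shared array, with 7.45 prior degrees of freedom; the lone shared array was taken to vary as the RNAi arrays do. Genes under the filter took values from a fit of all 22746 probe sets. Single-array comparisons have no test. The procedure was tested on simulated data. Alternatives were scaling, a floor of 32, an offset of 16, other filters, other eBayes settings, all 4 columns and leaving out arrays. The number of arrays limits the precision.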

Additional observations from a re-analysis of the deposited data

How the results depend on the processing

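No member was called higher or lower in limma under any setting that gave a test. The count of all probe sets called higher, 5, became 0 with quantile normalisation, the floor of 32, the offset of 16, no filter, robust eBayes and all 4 columns, and 13 without the intensity trend (all 5 shared); it was 5 with the 50th percentile filter, but only 1 of these was shared; the cause was not tested. In the settings with a test, member values kept their sign and side of the threshold in 192 of 195 cases. The others were SEC6 (-0.03 with quantile normalisation, -0.05 with median centring) and VPS22 (-0.01 with median centring). Most of these cases could not change sign. Other filters, other eBayes settings and the floor of 32 leave the difference of a kept member as it was, and all 4 columns only shrink it. Only scaling and the offset could change a sign, so the count says little about robustness. The count of members 2-fold higher in RNAi group 2 than in RNAi group 3, 1 (VPS9B), became 0 with quantile normalisation (log2 0.98), median centring (0.95), the offset (0.92) and the 50th percentile filter, which removes VPS9B. VPS2.2 and SECE1 stayed 2-fold lower in all these, from -1.78 to -1.98 and from -1.02 to -1.14. With 1 RNAi group left out at a time there were 0 to 1 members 2-fold higher and 0 to 1 lower than the shared array (VPS9B and VPS2.2, without group 3), with no test, and a median from -0.03 to 0.20; the sign of 8 of the 20 members changed without group 2 and of 5 without group 3. RNAi group 1 repeats the control column, so leaving it out changes nothing. The median over the 17 kept traffic members alone, added after seeing the data, was 0.03. No paired analysis was possible because a plant group number is given for the RNAi arrays alone. Dim signals limit SEC5B, SECA2, VPS9B and SEC1B most.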
